A study of Homo sapiens with 2 samples.

Results

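Kinesins are motor proteins that use ATP to move along microtubules or to take them apart. The motors of cell division build and focus the spindle, move chromosomes and complete cytokinesis, and their genes are typically transcribed in the late part of the cell cycle. Transport motors carry vesicles, mitochondria and other cargo along microtubules in all phases of the cycle and are best known from neurons and cilia, while a pluripotent stem cell divides rapidly and relies on the mitotic set at every division.

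The kinesin genes were taken as all genes of the deposited table whose name is KIF or KIFC followed by a digit, which gave 43 of 20263 genes and 200 of 95139 transcripts. Among them, KIF1BP encodes a kinesin binding protein and not a motor, so the set holds 42 motors. By textbook role, 15 motors were listed as mitotic, 15 as transport and 12 as other. The assignment went by role, but it was made with earlier results of these data known. The libraries come from the established embryonic stem cell line H9, of human origin, collected 48 h after treatment with small interfering RNA against HNRNPA1 (siHNRNPA1), which encodes the splicing regulator hnRNP A1, or with a control small interfering RNA (sicontrol). Both groups are of the same line and differ, by the labels, only in the small interfering RNA. The series as a whole asks how splicing of TCF3 bears on stem cell self-renewal. Each group had 1 library, so no difference below has a replicate check, no test was made, and each value compares 1 library with 1 library.

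The siHNRNPA1 library held 28147828 estimated counts and the control library 26680342. HNRNPA1 itself, which checks the labels, had 179.9 FPKM (fragments scaled to transcript length and library depth) with siHNRNPA1 and 663 in the control. Pluripotent cell markers were present in both libraries, with 14 of 14 at a mean of at least 1 FPKM and a summed level of 2760 FPKM with siHNRNPA1 and 2809 in the control, of which 4 were lower and 1 higher by 2-fold (PRDM14 at 1.64, LIN28B at -1.63 and PODXL at -1.61 lay farthest from 0 on the log2 scale). Of all genes at such a mean, 21.9% were lower and 12.4% higher by as much. Mitochondrial protein-coding transcripts made up 18.1% of TPM with siHNRNPA1 and 28.2% in the control. In bulk RNA, fewer cells with a transcript and less of it per cell cannot be told apart.

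A gene's level is the sum of the FPKM of its transcripts, and the log2 folds below are log2((siHNRNPA1 + 1)/(control + 1)) of that sum, a scale that understates the difference of weakly expressed genes. A gene was kept with a mean of at least 1 FPKM and counted as lower or higher in the siHNRNPA1 library from 2-fold on. Intervals in brackets are a gene's FPKM scaled by the exact 95% Poisson limits of its summed estimated count. They cover counting error only. For genes with several transcripts they are approximate and can be too narrow, because FPKM weights the counts of each transcript by its length. Of the 43 genes, 36 were kept and 7 lay under the minimum. KIF14, KIF3A and KIF21A were kept only through the control library, being under 1 FPKM with siHNRNPA1, and KIF24 and KIF9 only through the siHNRNPA1 library.

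Many kinesin messages had lower values in the siHNRNPA1 library, among them most of the mitotic motors kept. Of the 36 kinesin genes kept, 14 were lower by 2-fold or more and 0 were higher by as much, against 21.9% of all 11921 genes kept that were lower and 12.4% that were higher. KIF14, KIF3A and KIF21A, kept only through the control library, were among the 14. The median log2 fold was -0.72 for the kinesin genes and -0.13 for all genes. Among mitotic motors 8 of 13 kept were at least 2-fold lower, with a median of -1.21 and with 12 of 13 below 0. Among transport motors 4 of 15 were lower, with a median of -0.71 and with 11 of 15 below 0. Of the 7 other motors kept, 2 were lower and 5 had folds above 0 (median 0.57). The difference between the mitotic and the transport median was -0.49 on the log2 scale. The counts depend on the pseudocount of 1 FPKM. With one of 0.1, 8 mitotic and 7 transport motors were at least 2-fold lower. Of all kinesin genes kept, 17 were then lower and 2 higher, beside 3217 lower and 1818 higher of all genes. Summed over all its genes, the mitotic set stood at 276 FPKM with siHNRNPA1 and 399 in the control, or 69.2% of the control level, and the transport set at 185 and 221 FPKM, or 83.7%. Single genes weighed heavily on these sums, so they do not describe the typical motor of a class. KIF1A gave 96.4 and 87.7 FPKM of the transport set, and KIF22 gave 121 and 75.3 FPKM of the mitotic set. The FPKM of all genes summed to 111% of the control. After rescaling by the median ratio of the libraries, 11 kinesin genes were lower and 1 higher, against 18.3% lower and 16% higher of all genes (2184 and 1906). With TPM in place of FPKM 18 were lower and 1 higher, against 27.9% and 10.2% of all genes (3625 and 1331). Mitotic motors made up 55.5% of all motor FPKM with siHNRNPA1 and 60.6% in the control.

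**Figure D1:**
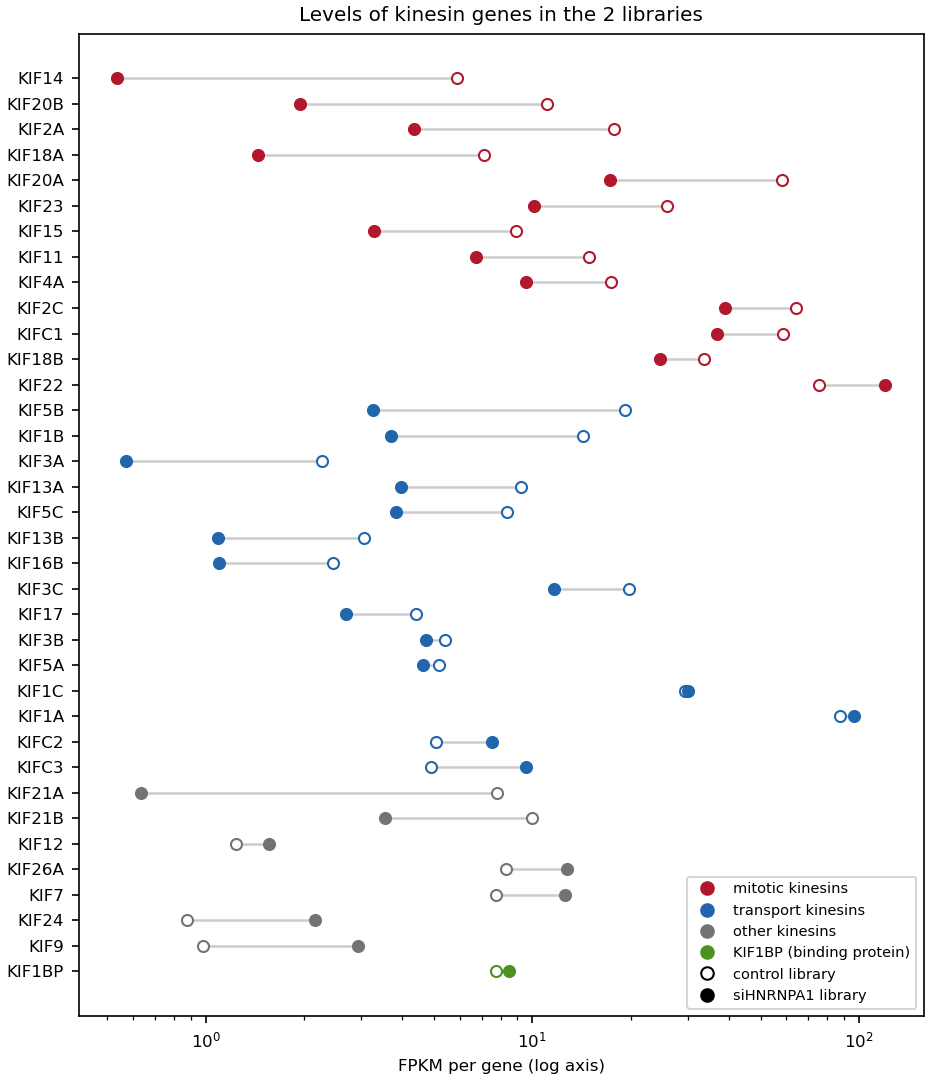
FPKM per gene on a log axis for the 36 kinesin genes with a mean of at least 1 FPKM. Filled points are the siHNRNPA1 library, open points the control library, and colours mark the class. Most mitotic genes (red) lie to the left of their control value, KIF22 lies to the right, and KIF1A and KIF22 are the most abundant.

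Most start sites of the mitotic genes carried a shared pair of short elements, which is shown here because its share differs between the mitotic and the transport genes. The search for it used no measured level, though the classes were set with earlier results of these data known. The cell cycle genes homology region (CHR, searched as TTTGAA or TTCGAA) and the CCAAT box (searched as CCAAT) are elements bound by the DREAM and B-MYB complexes and by NF-Y in genes of late cell cycle phases. Both were searched on both strands of RefSeq promoters on GRCh38.p14, from 250 bases before to 50 after the annotated start, for the 34 of 43 genes matched by symbol. The ends of a CHR match and a CCAAT match can overlap, but neither contains the other. Both were present in 10 of 15 mitotic promoters, in 1 of 11 transport promoters (KIF5B) and in 1 of 8 of the other genes (KIF24). Over all 35116 promoters of this length, 6.38% held both, 16.4% the CHR and 34.6% the CCAAT box. The windows shown are 90 bases long, from 100 to 11 bases upstream of the start, and are given 5′ to 3′ on the strand of the gene, with each match in capitals. The windows of KIF11 (chr10:92593030-92593119, plus strand), KIF4A (chrX:70290004-70290093, plus strand) and KIF22 (chr16:29790651-29790740, plus strand) each hold a CCAAT box, here read as ATTGG on this strand, ahead of a CHR. KIF5B (chr10:32056436-32056525, minus strand) has its CCAAT box in the window and its CHR outside it, and KIF1C (chr17:4997850-4997939, plus strand) has no match.
KIF11: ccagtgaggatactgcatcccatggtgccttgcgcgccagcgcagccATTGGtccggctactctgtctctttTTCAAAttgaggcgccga
KIF4A: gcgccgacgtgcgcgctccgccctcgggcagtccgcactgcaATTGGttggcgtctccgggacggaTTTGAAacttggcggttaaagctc
KIF22: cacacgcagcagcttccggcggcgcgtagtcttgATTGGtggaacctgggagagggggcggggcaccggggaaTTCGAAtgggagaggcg
KIF5B: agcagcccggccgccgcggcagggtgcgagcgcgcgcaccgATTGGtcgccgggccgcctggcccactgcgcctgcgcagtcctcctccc
KIF1C: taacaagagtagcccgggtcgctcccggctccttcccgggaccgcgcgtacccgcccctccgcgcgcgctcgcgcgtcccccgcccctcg

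In these windows the CHR began 28 bases upstream of the RefSeq start in KIF11, 34 in KIF4A and 27 in KIF22, and the CCAAT box 53, 58 and 66 bases upstream. The RefSeq start can differ from the start of the gene as deposited. KIF22 as deposited starts at chr16:29790719, ahead of its CHR, so by that start the CHR lies inside the gene. KIF11 as deposited starts at chr10:92593286, downstream of its RefSeq start. In each of these promoters both elements lie upstream of the RefSeq start. That also holds for KIF18A and KIF23, whose windows were not printed. Windows with more than a set number of bases in annotated exons were left out. The other mitotic promoters with both elements were those of KIF18A and KIF23, whose CHR began 10 and 55 bases upstream, and of KIF14, KIF18B, KIF20B, KIF4B and KIFC1, whose CHR matches lay after the start, beginning between bases 2 and 31 counted from it. The same 90-base windows of KIF18B and KIF20B therefore hold a CCAAT box and no CHR. KIF15 had the CHR alone and KIF20A the CCAAT box alone, while KIF2A, KIF2B and KIF2C had neither. Mitotic genes with both elements spanned most of the range of folds: KIF14 (-2.16), KIF11 (-1.05), KIF4A (-0.81) and KIF22 (0.67) all carried both, and KIF2A, at -1.81, carried neither. Of all genes kept and matched, 32.8% of those with both elements were at least 2-fold lower and 21.6% of those without both. A match is a description of the letters in the window and not a shown binding site.

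The kinesin-6 genes, whose motors act at the central spindle and in cytokinesis, were lower in all 3 members, with a summed level of 30.9% of the control. KIF20A (MKLP2, which brings the chromosomal passenger complex to the midzone; ENSG00000112984, chr5:138178719-138187715, plus strand, GRCh38) had 17.3 FPKM [16.5 to 18.2] with siHNRNPA1 and 58.1 [56.6 to 59.7] in the control, a log2 fold of -1.69. KIF23 (MKLP1, a subunit of centralspindlin) had 10.1 FPKM [9.54 to 10.7] and 25.8 [24.9 to 26.7], a log2 fold of -1.27. KIF20B (MPP1, a motor of late cytokinesis) had 1.95 FPKM [1.76 to 2.14] and 11.1 [10.6 to 11.6], a log2 fold of -2.04. In all 3 genes the siHNRNPA1 library was lower by more than counting error. KIF14, the citron kinase partner of cytokinesis (ENSG00000118193, chr1:200551497-200620734, minus strand), was the lowest mitotic motor relative to its control. It had 0.536 FPKM [0.448 to 0.637] with siHNRNPA1 and 5.87 [5.55 to 6.21] in the control, 9.13% of the control and a log2 fold of -2.16. Behind these values are 130 estimated counts with siHNRNPA1 and 1252 in the control, and the log2 ratio of counts was -3.34.

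Messages of motors that push spindle poles apart were also lower than in the control. KIF11 (Eg5, the kinesin-5 that slides antiparallel microtubules; ENSG00000138160, chr10:92593286-92655395, plus strand) had 6.72 FPKM [6.33 to 7.14] with siHNRNPA1 and 15.0 [14.3 to 15.6] in the control, a log2 fold of -1.05, just past the 2-fold limit. KIF15, the kinesin-12 that can take over from KIF11 in spindle assembly, had 3.29 FPKM [2.93 to 3.67] and 8.91 [8.42 to 9.42], a log2 fold of -1.21. Protein-coding transcripts of KIF15 summed to 1.75 FPKM with siHNRNPA1 and 7.79 in the control (-1.68). Its transcripts annotated as targets of nonsense-mediated decay summed to 1.54 and 1.12 FPKM, on few counts. Of these, the short ENST00000422209 had 36 and 9 estimated counts, and the longer ENST00000453693 had 0 and 54. KIF15 was under 5 FPKM with siHNRNPA1 and so is not in the comparison of transcript shares below. KIFC1 (HSET), the minus-end-directed kinesin-14 that focuses spindle poles, had 36.8 FPKM and 58.5 in the control, a log2 fold of -0.65, within 2-fold.

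Kinesins that shorten microtubules and bind the chromosomes gave mixed values. Among kinesin-13 depolymerases, KIF2A (of spindle poles, and also active in interphase) had 4.36 FPKM [3.91 to 4.85] with siHNRNPA1 and 17.8 [16.8 to 18.8] in the control, a log2 fold of -1.81. KIF2C (MCAK, the depolymerase of the centromere) was nearer to its control, at 38.8 FPKM [37.5 to 40.1] and 64.2 [62.5 to 65.9], a log2 fold of -0.71. Of the kinesin-8 pair, KIF18A, which damps chromosome movements at the metaphase plate, had 1.45 FPKM [1.24 to 1.68] and 7.11 [6.62 to 7.62], a log2 fold of -1.73. KIF18B, which shortens astral microtubules, had 24.6 and 33.7 FPKM, a log2 fold of -0.44. Among the chromokinesins, KIF4A, which works with PRC1 at the midzone, had 9.55 FPKM with siHNRNPA1 and 17.4 in the control (-0.81). KIF22 (Kid, which pushes chromosome arms toward the equator; ENSG00000079616, chr16:29790719-29805385, plus strand) was the only mitotic motor kept with a fold above 0: it had 121 FPKM [118 to 123] and 75.3 [73.1 to 77.5], a log2 fold of 0.67. KIF22 was also the most abundant motor in the siHNRNPA1 library. KIF4B, a near-identical intronless copy of KIF4A, had 0 and 4 estimated counts, so reads of the pair may have been divided between them, and KIF2B was listed at 0 in both libraries.

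**Figure D2:**
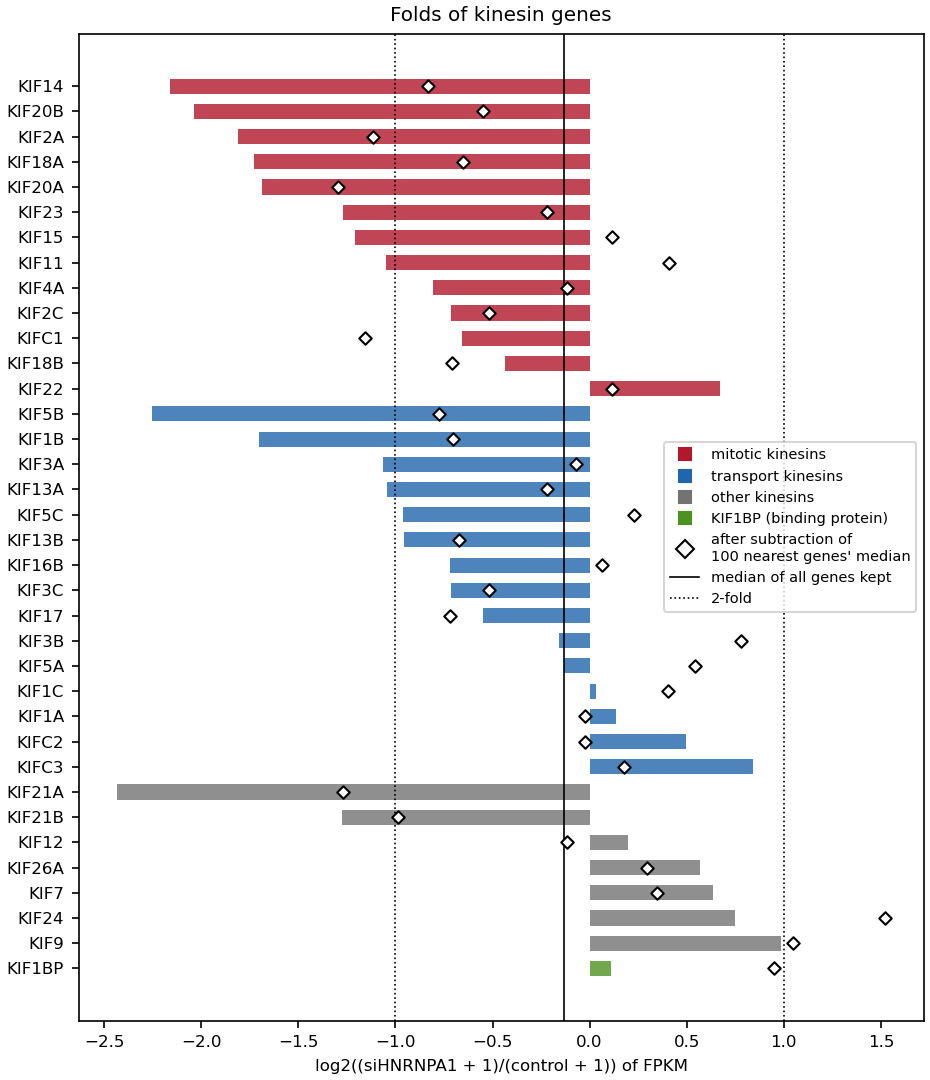
Log2 fold per kinesin gene (bars, coloured by class) and the same fold after subtraction of the median fold of the 100 genes closest in GC content, length and mean expression (diamonds). The solid line is the median of all genes kept and dotted lines mark 2-fold. Of the bars, 14 reach past the left dotted line and 0 past the right one, while 4 diamonds lie past the left and 2 past the right (7.82% and 8.03% of all genes). The 2 diamonds on the right, KIF24 and KIF9, are of genes kept only through the siHNRNPA1 library.

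The kinesin-1 heavy chains, the main anterograde motors of cell bodies and axons, differed among themselves. KIF5B, the form found in most tissues (ENSG00000170759, chr10:32009010-32056431, minus strand), had 3.24 FPKM [2.997 to 3.51] with siHNRNPA1 and 19.2 [18.6 to 19.9] in the control, a log2 fold of -2.25 and the lowest among transport motors. The neuron-enriched KIF5C had 3.82 and 8.37 FPKM (-0.96), just short of the 2-fold limit, and KIF5A, the other neuron-enriched form, 4.63 and 5.17 FPKM (-0.13). The order of the 3 genes therefore differed between libraries: KIF5B was the highest of them in the control and the lowest with siHNRNPA1. Together they stood at 35.7% of the control.

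The kinesin-2 subunits, which drive intraflagellar transport in cilia, summed to 61.7% of the control. KIF3A had 0.569 FPKM with siHNRNPA1 and 2.28 in the control (-1.06), whereas its partner KIF3B had 4.74 and 5.41 FPKM (-0.16). KIF3C, an alternative partner of KIF3A, had 11.7 and 19.8 FPKM (-0.71), and the homodimeric KIF17 had 2.68 and 4.40 FPKM (-0.55). All 4 subunits had folds below 0, and only KIF3A passed 2-fold. After subtraction of the median fold of the genes closest in GC content, length and expression, KIF3B stood at 0.78 and KIF3A at -0.07.

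The kinesin-3 motors of vesicles and endosomes spanned the widest range of levels. KIF1A, a carrier of synaptic vesicle precursors (ENSG00000130294, chr2:240713764-240820308, minus strand), was the most abundant motor in the control and alone made up much of the transport sum. It had 96.4 FPKM [95.3 to 97.6] with siHNRNPA1 and 87.7 [86.6 to 88.9] in the control, a log2 fold of 0.13, which was -0.01 with TPM. KIF1B, which carries mitochondria and synaptic vesicle precursors, had 3.70 and 14.3 FPKM (-1.70), and KIF13A, a motor of endosomes and melanosomes, 3.96 and 9.22 FPKM (-1.04). KIF13B had 1.09 and 3.06 FPKM (-0.96), and the endosomal KIF16B 1.10 and 2.45 FPKM (-0.72). KIF1C, a motor of dense core vesicles and podosomes, was level between libraries at 30.04 and 29.37 FPKM (0.03, or -0.12 with TPM). The minus-end-directed transport motors of the kinesin-14 family had folds above 0, with 9.58 and 4.91 FPKM for KIFC3 (0.84) and 7.55 and 5.07 FPKM for KIFC2 (0.49).

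Neuron markers were looked at beside the transport motors, because several of these motors are enriched in neurons. Of 13 listed markers 9 were kept, with 3 lower and 1 higher, and their summed level was 139 FPKM with siHNRNPA1 and 109 in the control. Of all genes kept, 21.9% were lower and 12.4% higher. TUBB3, a neuronal beta-tubulin, had 85.2 and 20.4 FPKM (2.01), STMN2 stood at -1.70 and SYT1 at -1.52. TUBB3 was the only one of the 9 with a fold above 0. Of the other markers kept, RBFOX3 had 19.3 and 25.7 FPKM, GAP43 11.9 and 15.0, INA 9.80 and 11.8, NEFL 2.90 and 9.92, NEFM 4.72 and 9.64, and MAP2 0.873 and 1.31. The 4 under the minimum included SNAP25, at 0.0661 and 0.156 FPKM, and ELAVL4, at 0 in both libraries. Of 10 markers of multiciliated cells 3 were kept, 0 lower and 0 higher, with log2 folds of -0.94 for CCDC39 (under the minimum), 0.55 for FOXJ1 and 0.38 for CCDC40 and with DNAI2 and MCIDAS at 0 in both libraries. Of 10 fibroblast markers 4 were kept, 0 lower and 0 higher, with a summed level of 218 FPKM with siHNRNPA1 and 264 in the control and with LUM, DCN, COL3A1 and FAP at 0 in both. THY1, a marker that stem cells also express, made up most of that sum, at 181 and 233 FPKM, and the folds farthest from 0 were those of COL1A1 (0.75), COL1A2 (-0.61) and PDGFRA (0.48, under the minimum). The part of such cells in the kinesin values was not tested.

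Outside mitosis and transport, the lowest kinesin of all was KIF21A, a kinesin-4 that restrains microtubule growth at the cell cortex (ENSG00000139116, chr12:39293229-39443390, minus strand). It had 0.634 FPKM [0.533 to 0.749] with siHNRNPA1 and 7.83 [7.37 to 8.30] in the control, 8.10% of the control and a log2 fold of -2.43. Its paralog KIF21B had 3.55 and 10.01 FPKM (-1.27). The GC content of their transcripts was 41.5% for KIF21A and 59.9% for KIF21B. Of the other motors kept, 5 had folds above 0, and all 5 were within 2-fold on the scale with a pseudocount of 1 FPKM. KIF7, a regulator of Hedgehog signalling at the cilium tip, had 12.6 and 7.73 FPKM (0.64), KIF26A 12.8 and 8.30 FPKM (0.57), and KIF12 1.56 and 1.24 FPKM (0.20). KIF24, which acts on centriolar microtubules to restrain cilium formation, had 2.16 and 0.876 FPKM (0.75), and KIF9 had 2.93 and 0.985 FPKM (0.98). Without the pseudocount KIF24 stood at 246% and KIF9 at 297% of the control, and both were kept only through the siHNRNPA1 library. KIF1BP, the binding protein, had 8.48 and 7.77 FPKM (0.11, or -0.02 with TPM). The 7 genes under the minimum had control levels from 0 to 1.15 FPKM and siHNRNPA1 levels from 0 to 0.0979 FPKM; among them KIF27, a paralog of KIF7, had 16 estimated counts with siHNRNPA1 and 148 in the control, and KIF26B, a paralog of KIF26A, had 13 and 58.

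The GC content of transcripts moved with these folds, as it did over the whole table. Spearman's rank correlation between fold and GC content was 0.74 over the 36 kinesin genes, 0.82 over the 13 mitotic and 0.81 over the 15 transport motors, and 0.58 over 11920 genes; genes of 1 library pair share its depth and base composition bias, and these values describe the 2 libraries only. With all genes in 5 equal groups by GC content, the group of lowest content spanned 32.0 to 42.5%. In it 9 of 9 kinesin genes were at least 2-fold lower, with a median of -1.73, while 48.6% of all genes in it were lower, with a median of -0.97. The 9 included KIF14, KIF3A and KIF21A, which were kept only through the control library. In the next group 3 of 7 kinesin genes were lower (33.6% of all genes), then 1 of 6 (18.5%), 0 of 6 (6.67%) and, in the group of highest content, 1 of 8 (2.10%). Mitotic motors had a median GC content of 43.3%, transport motors of 51.4% and the other motors of 59.9%, so class and GC content overlap in this set. The part of GC content in the folds was not tested.

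**Figure D3:**
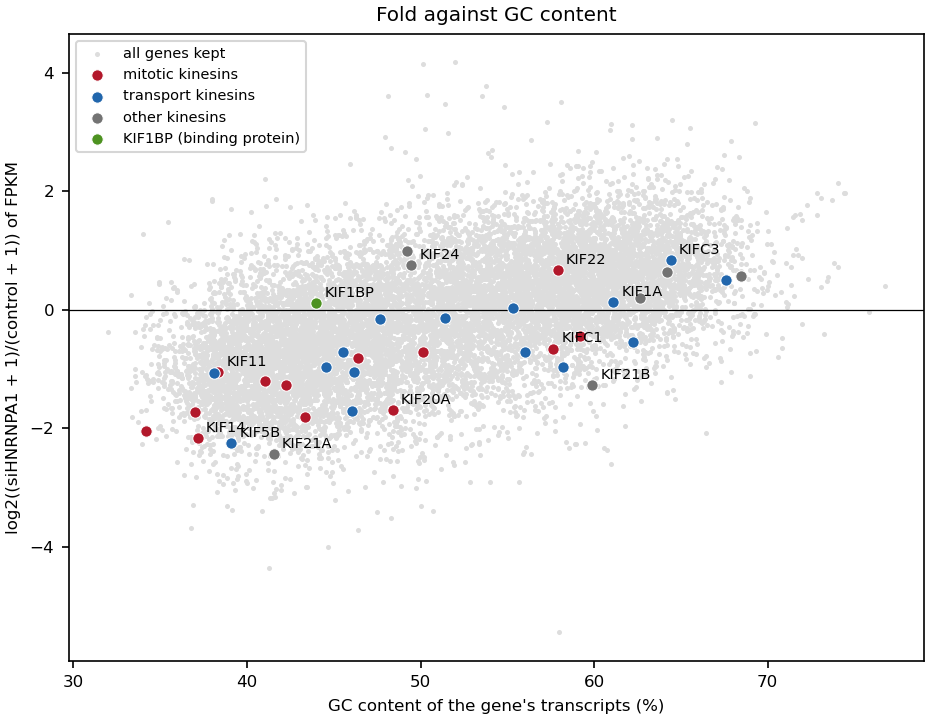
Log2 fold against the GC content of a gene's transcripts, weighted by abundance, for all genes kept (grey) and the kinesin genes (coloured by class). Kinesin genes follow the upward slope of the grey cloud, with KIF21B and KIFC1 lying below it at high GC content.

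When each gene was set against the 100 genes closest to it in GC content, length and mean expression, and their median fold was subtracted, the median of the kinesin genes was -0.12 and that of all genes 0.0081. Of all 11920 genes, 7.82% then lay 2-fold or more below their neighbours and 8.03% above, and of the 36 kinesin genes 4 were lower and 2 higher. Of the 14 genes lower by 2-fold, 3 remained past it: KIF20A (-1.30), KIF21A (-1.27) and KIF2A (-1.11). KIFC1 joined them at -1.15, since its nearest genes had folds above 0. On the other side KIF24 (1.52) and KIF9 (1.05) passed 2-fold. Both were kept only through the siHNRNPA1 library, with 0.876 and 0.985 FPKM in the control, so their place on this side is no separate result. KIF21A, on the lower side, was kept only through the control library, so its place there is likewise no separate result. KIF11 (0.41) and KIF15 (0.12) then had values above 0, so that their folds lay above the median of comparable genes. The mitotic median was then -0.55 and the transport median -0.02, and the difference between them was -0.52, as against -0.49 before. By this measure 3 of 13 mitotic and 0 of 15 transport motors were at least 2-fold lower, beside 7.82% of all genes.

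The transcript make-up of the motors was compared as a transcript's share of its gene's FPKM, for the 12 kinesin genes that reached 5 FPKM in each library and had 2 transcripts or more. A share differed by at least 20 percentage points in 1 of them, KIF2C (ENSG00000142945, chr1:44739818-44767767, plus strand). How often a share differs by as much over all genes was not counted. In the control ENST00000372224, which encodes 725 residues, had 62.6 FPKM or 97.6% of the gene, and ENST00000372217, which encodes 671 residues, had 0 FPKM. With siHNRNPA1 the first had 18.1 FPKM or 46.6% and the second 19.3 FPKM or 49.8%, on 1891 estimated counts. The transcripts share 2601 exonic bases and differ at their 5′ ends: the longer form alone holds exonic sequence of 183 bases (chr1:44739820-44740002) and 95 bases (chr1:44740913-44741007), and the shorter form alone 354 bases (chr1:44746406-44746759), of which 3 are coding. The form that made up nearly all of KIF2C in the control therefore differed more between libraries than the gene sum did. The assignment of reads between transcripts that share most of their length is an estimate of the authors' program, and its error was not given in the sources used here.

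**Figure D4:**
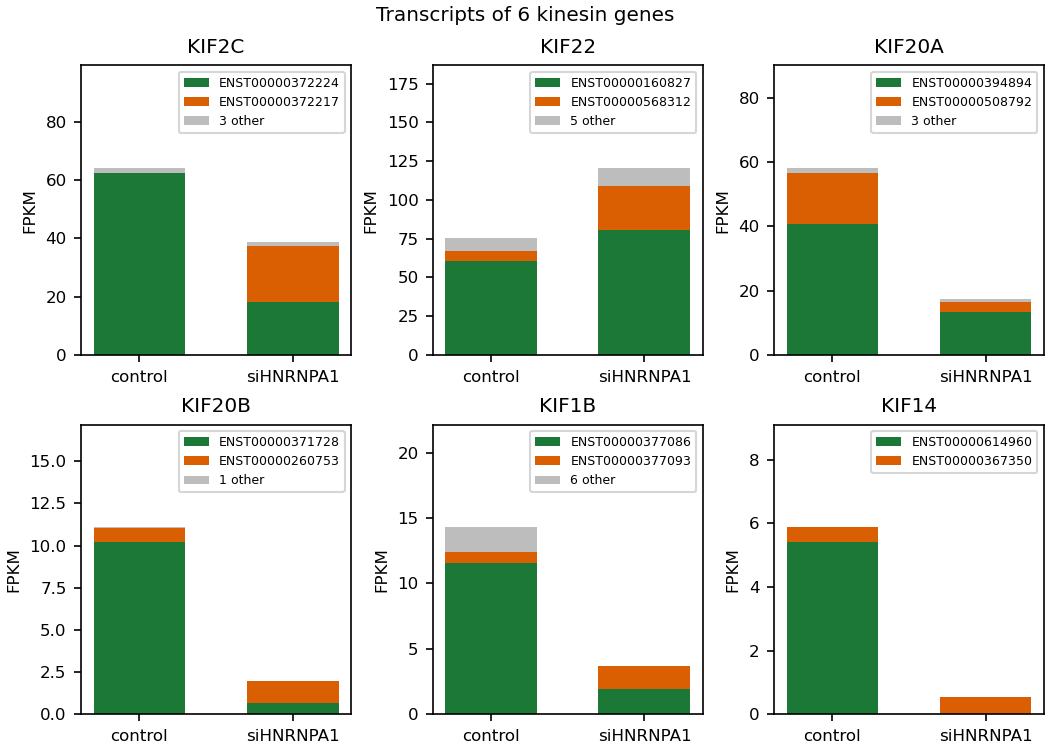
FPKM of the 2 most abundant transcripts and the sum of the others for 6 kinesin genes, as stacked bars for the control and the siHNRNPA1 library. In KIF2C a transcript listed at 0 in the control reaches 19.3 FPKM with siHNRNPA1, and in KIF14 the main control transcript is listed at 0 with siHNRNPA1.

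KIF22, the mitotic exception, had part of its surplus in a transcript that is annotated as a target of nonsense-mediated decay. That transcript, ENST00000568312, had 27.8 FPKM with siHNRNPA1 and 6.32 in the control, or 23.1% and 8.40% of the gene, and the main coding transcript ENST00000160827 had 80.8 and 60.5 FPKM. Protein-coding transcripts of KIF22 summed to 92.2 FPKM with siHNRNPA1 and 68.3 in the control, a log2 fold of 0.43. KIF20A was lower in both of its main transcripts, with 13.5 and 40.6 FPKM for ENST00000394894 and 2.89 and 16.1 FPKM for ENST00000508792. KIF1A drew 96.3% of its FPKM with siHNRNPA1 and 95.8% in the control from 1 transcript, ENST00000320389. Names of transcripts for KIF22, KIF20A and KIF1A were chosen after their values were seen.

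Messages of most proteins that work with the mitotic kinesins were lower beside them. Of 23 partners kept (spindle, midzone and passenger proteins and the kinesin CENPE, whose name the rule does not match), 18 were lower by 2-fold or more and 0 were higher. Their median log2 fold was -1.43, or -0.78 after subtraction of the nearest genes, when 9 were lower. ANLN, a scaffold of the contractile ring, had 2.90 and 25.7 FPKM (-2.77), ECT2, a cytokinesis protein recruited by centralspindlin, 3.70 and 23.5 FPKM (-2.38), and CKAP5, a microtubule polymerase, 10.2 and 56.6 FPKM (-2.37). The partners within 2-fold were NUMA1 (0.34), AURKB (0.29), AURKA (0.14), PLK1 (-0.26) and CDCA8 (-0.36). Regulators of late cell cycle genes were divided: of 16 DREAM, B-MYB and FOXM1 components 4 were lower and 2 higher (median -0.70), with RBL2 at -2.26, NFYA at -1.88 and FOXM1 itself at 61.6 and 21.6 FPKM (1.47). After subtraction of the nearest genes the regulators' median was 0.08, with 2 lower and 1 higher. RBL2, at 0.853 FPKM with siHNRNPA1, was kept only through the control library.

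Partners of the transport kinesins lay on both sides. Of 20 light chains and cargo adaptors kept, 5 were lower and 3 higher, with a median of -0.01. MAPK8IP2, an adaptor of kinesin light chain, had 11.7 and 1.08 FPKM (2.61), RHOT1, the mitochondrial adaptor Miro1, 2.01 and 14.2 FPKM (-2.34), and SPAG9, another light chain adaptor, stood at -2.04. Of 26 genes of dynein, dynactin and their regulators, which form the retrograde transport machinery, 3 were lower and 3 higher, with a median of 0.19. DYNC1I2, a dynein intermediate chain, had 7.94 and 35.5 FPKM (-2.03), while the dynactin subunits ACTR1B (1.51) and DCTN3 (1.44) lay on the higher side. These lists are described by their counts beside the 21.9% lower and 12.4% higher of all genes.

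**Figure D5:**
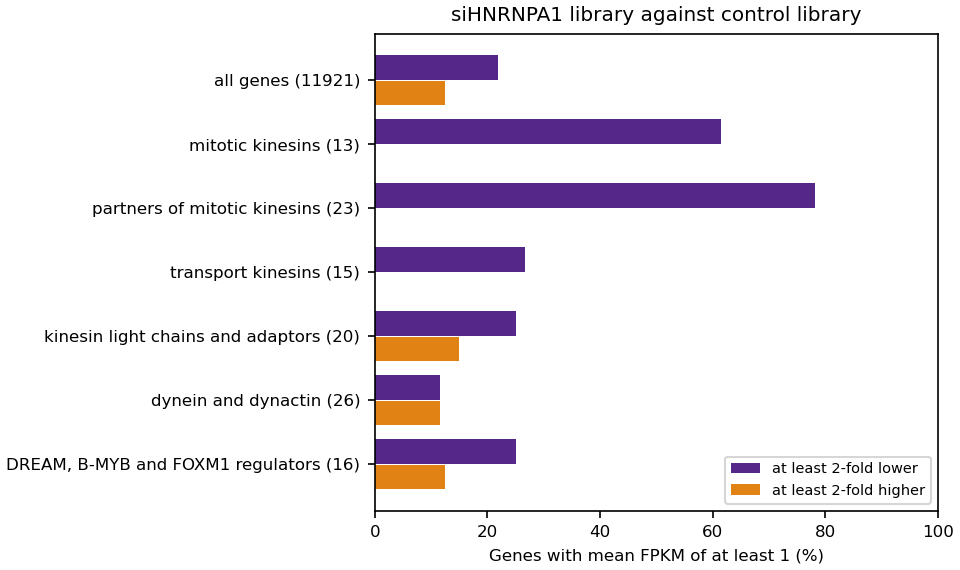
Percent of kept genes at least 2-fold lower (purple) and at least 2-fold higher (orange) in the siHNRNPA1 library, for all genes and for the kinesin lists and their partners, with the number kept in brackets. The mitotic motors, their partners and the transport motors have no gene at least 2-fold higher, while the list of dynein, dynactin and their regulators has as many higher as lower.

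Overlap with neighbouring genes bears on how surely the reads belong to a kinesin. Exonic bases were shared with another gene by 19 of the 43 genes, over 7 to 870 bases, and on the same strand by 2, KIF2A with IPO11 (428 bases) and KIF1B with RN7SL731P (293 bases). Strand use in the authors' counting is not given in the sources used here, so reads in the opposite-strand overlaps cannot be assigned with certainty, which holds for KIF9 with KIF9-AS1 (870 bases), KIF22 with AC009133.4 (561 bases) and KIF20A with BRD8 (132 bases) and CDC23 (68 bases). Of the 14 lower genes, 8 share no exonic base with another gene.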

How the data were processed

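RNA-seq of H9 cells was read from 1 deposited table with 1 row per transcript. Per the labels' protocols, libraries were made from total RNA with a messenger RNA kit for Illumina sequencing. Per the file headers, the table gives counts, TPM and FPKM per library. Overlapping transcripts of a gene each carry whole-number values in the count columns as deposited, which were therefore treated as estimated counts of the authors' program. The TPM and FPKM values are those deposited by the authors. GRCm38 and mm10, both mouse builds, are listed in the submitters' processing notes, whereas the table holds human identifiers, and 191 of the 200 kinesin transcripts have the same position in GENCODE 29 (GRCh38). The sources used here name neither aligner nor quantification program. Another 6 columns of per-sample values match neither library and were not analysed here.

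FPKM was summed per gene identifier, with a pseudocount of 1, a minimum mean of 1 FPKM and a 2-fold limit, in Python 3.11.15 with numpy 2.4.6, pandas 2.3.3, scipy 1.17.1 and matplotlib 3.10.9. Log2 folds, exact 95% intervals of a ratio of 2 counts and the subtraction of the 100 nearest genes were tested on simulated data. The bracketed FPKM intervals were not tested in this way. GC content and length are abundance-weighted over GENCODE 29 transcripts, for 11920 of 11921 genes kept. Depth was 28147828 and 26680342 estimated counts. With 1 library per group no test across genes was made. Promoter sequences are those of RefSeq.

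Every kinesin gene kept is named, with the 3 largest absolute folds of each partner or marker list and transcripts whose share differed by 20 points. The kinesin set, the classes and the lists were chosen with earlier results of these data known. Alternatives were another unit (TPM, CPM), scaling, pseudocount, filter, transcript choice, class membership and nearest-gene subtraction.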

Additional observations from a re-analysis of the deposited data

How the results depend on the processing

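With 1 library per group, nothing here measures the spread between cultures, and no paired analysis was possible because each group has 1 library and the values come from no test. Of the 14 kinesin genes at least 2-fold lower, KIF20A and KIF2A stayed so in all 9 alternatives and KIF21A in the 8 that kept it, and 12 of 14 kept their sign in all. KIF14, KIF3A and KIF21A passed the filter only through the control library, so their place among the lower genes is no separate result. With the nearest genes subtracted, KIF15 went to 0.116 and KIF11 to 0.410. Kinesin genes under 1 FPKM rest on few counts. The cause of the differences below was not tested.

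The median of all genes moved from -0.13 to -0.15 with a pseudocount of 0.1 FPKM, -0.0799 with one of 5, 0 with no filter on low values, 0.068 with a minimum mean of 5 FPKM, 0.0046 with median ratio scaling, -0.30 with TPM, -0.17 with CPM, -0.0796 with the leading transcript only and 0.0081 with the nearest genes subtracted. In the same order, the mitotic median moved from -1.21 to -1.34, -0.77, -1.05, -1.05, -1.08, -1.45, -1.30, -1.52 and -0.55. The transport median moved from -0.71 to -0.29 with a pseudocount of 5, -0.44 with the minimum of 5 FPKM, -0.57 with median ratio scaling, -0.89 with TPM, -0.43 with the leading transcript only and -0.0239 with the nearest genes subtracted. The median of all kinesin genes moved from -0.72 to -0.49 with a pseudocount of 5, -0.98 with TPM, -0.97 with CPM and -0.12 with the nearest genes subtracted. The difference of the mitotic and transport medians was below 0 in every alternative run and moved from -0.49 to -0.33 with no filter, -0.61 with the minimum of 5 FPKM and -1.09 with the leading transcript only.

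With a pseudocount of 5, the lower genes numbered 947 of all genes, 7 of the kinesin genes, 4 of the mitotic and 2 of the transport motors, and the higher genes 841 of all. With the nearest genes subtracted, 932 of all genes, 4 kinesin genes, 3 mitotic and 0 transport motors were lower, and 957 of all genes and 2 kinesin genes higher. Those 2, KIF24 and KIF9, were kept only through the siHNRNPA1 library. The minimum of 5 FPKM left 1450 of all genes lower. Lower transport motors numbered 7 with a pseudocount of 0.1, with TPM and with CPM, and 2 with median ratio scaling. Of all genes, 3217 were lower with a pseudocount of 0.1, 27.9% with TPM and 18.3% with median ratio scaling. Kinesin genes at least 2-fold higher numbered 2 with a pseudocount of 0.1 (again KIF24 and KIF9) and 1 with each of median ratio scaling, TPM and CPM. Of all genes, 1818 were higher with a pseudocount of 0.1, 16% with median ratio scaling and 10.2% with TPM. Of the values for partner and marker lists, 122 of 144 stayed within the same bounds.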

Other observations

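Several kinesin genes had a different leading transcript in each library. Apart from KIF2C, they had a level under 5 FPKM in at least 1 library and so were not in the share comparison above. Of 30 kept kinesin genes with at least 2 transcripts, 10 had a different most abundant transcript in the siHNRNPA1 library than in the control: KIF12, KIF13A, KIF14, KIF16B, KIF17, KIF20B, KIF21A, KIF2C, KIF3A and KIF9. The same count was not made over all genes, so it cannot be read as a trait of kinesin genes. In KIF14 the control leader ENST00000614960 had 5.40 FPKM in the control and 0 with siHNRNPA1, while ENST00000367350 had 0.469 and 0.536 FPKM. In KIF20B the control leader ENST00000371728 had 10.2 FPKM in the control and 0.648 with siHNRNPA1, while ENST00000260753 had 0.842 and 1.30 FPKM. In KIF21A the most abundant control transcripts, ENST00000544797 at 5.22 FPKM and ENST00000551264 at 1.91 FPKM, were both listed at 0 with siHNRNPA1, while ENST00000361961 had 0.498 FPKM in the control and 0.614 with siHNRNPA1. In KIF1B, ENST00000377086 had 11.5 FPKM in the control and 1.91 with siHNRNPA1, and ENST00000377093 had 0.888 and 1.75 FPKM. These transcripts were chosen after their values were seen, and a value listed at 0 can be an estimate that assigned all shared reads to another transcript.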
